A study of Homo sapiens with 6 samples.

Results

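The genes that set the speed of passage through G1 were examined in OVCAR8, a cell line of high-grade serous ovarian cancer, after EZH2 was depleted by a drug or by a hairpin. They were taken by name as the 3 D-type cyclins (CCND1, CCND2, CCND3), their 2 catalytic partners (CDK4, CDK6), the 3 inhibitors of the CIP/KIP family (CDKN1A, CDKN1B, CDKN1C) and 2 inhibitors of the INK4 family (CDKN2A, CDKN2B), 10 genes in all. Of these, 9 were listed among the 14930 genes of the deposited matrix, and all 9 passed the filter on low values, which required 10 or more in 2 or more samples and left 9671 genes to test. CCND2, which encodes cyclin D2, was not listed in the matrix and has no value here.

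RNA-Seq of 6 samples was available, 2 replicates in each of 3 groups, harvested at 72 h. Control cells (Ctrl) received DMSO. The second group received DZNep (3-deazaneplanocin A, an inhibitor of S-adenosylhomocysteine hydrolase that lowers EZH2 protein) at 5 μM by the study's methods, which the labels write as mM. The third group (shEZH2) carried the EZH2 hairpin number 2 in a doxycycline-inducible Tet-On lentiviral vector and received doxycycline at 1 μg/mL by the methods, which the labels write as mg/mL. Whether the control cells carried the hairpin vector was not given in the sources used here, so effects of doxycycline or of the vector and those of EZH2 loss cannot be told apart in that group.

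D-type cyclins bind CDK4 or CDK6 when growth signals arrive, and the active kinases phosphorylate RB1, which releases E2F transcription factors and opens the way to S phase. INK4 proteins bind CDK4 and CDK6 and keep the cyclin away, whereas CIP/KIP proteins bind cyclin-kinase complexes and block chiefly those of CDK2. The INK4 locus is a classical target of Polycomb repression, in which EZH2 trimethylates histone H3 at lysine 27, and CCND1 has been described as a gene that EZH2 can activate without that activity in a lymphoma.

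The check of the labels was the EZH2 transcript itself. EZH2 measured 36 and 42 in the control samples, 26 and 26 after DZNep, and 18 and 18 in shEZH2 (values as deposited, which the authors had scaled so that every sample has nearly the same total). The log2 fold change was -0.63 (SE 0.18, adjusted p = 0.0255, limma) for DZNep and -1.12 (SE 0.18, adjusted p = 0.0161) for shEZH2, and the 3 groups did not overlap. The DZNep call for EZH2 was lost without control replicate 2 (adjusted p = 0.0877) or DZNep replicate 2 (0.0764), and the shEZH2 call without shEZH2 replicate 1 (0.214) or 2 (0.17). Of 10 markers of a Müllerian epithelial carcinoma line, 7 were in the matrix and SOX17, MUC16 and KRT19 were not, and WT1 stood at 1 or 2 in every sample. Their summed value ran from 2577 to 3212 in control, 7400 to 8585 after DZNep and 3551 to 3557 in shEZH2, a rise carried by the keratins KRT8 and KRT18. The other markers of the set did not share it. MSLN was 176 and 150 in control, 45 and 36 after DZNep, and 102 and 95 in shEZH2. PAX8 was 17 and 19, 10 and 13, and 16 and 12 in the same order. KRT7 was 597 and 499, 585 and 503, and 355 and 350, and EPCAM was at most 12 in every sample. Of 8 markers of blood, endothelial and stromal cells, 3 were in the matrix (CD68, VWF and COL1A1), with sums of 81 to 84, 26 to 32 and 40 to 49 in the same order, and VWF was at most 2 in every sample. The fall of the sum was carried by CD68 (70 and 65, 18 and 15, and 32 and 28), while COL1A1 was 13 and 16, 12 and 9, and 16 and 11. The part of these shifts in the results below was not tested. The shEZH2 replicates lay closer to each other (SD of the replicate difference across genes 0.14 on the log2 scale) than the control (0.43) or DZNep replicates (0.45). Whether replicates came from separate cultures was not given, so p-values measure only the spread between these samples, which may be technical.

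With DZNep in OVCAR8, CCND1 rose 2.48-fold and CDK6 1.78-fold, while the inhibitors CDKN1B, CDKN2B and CDKN1A fell 3.30-fold, 2.03-fold and 1.71-fold. CCND3, CDK4, CDKN1C and CDKN2A did not pass the test. Thus 2 of the 9 genes were called higher and 3 lower (adjusted p below 0.05, with the adjustment made over every gene tested), against 22.3% called higher and 20.4% called lower of all 9671 genes. The 5 of 9 called in either direction stand beside 42.7% of all genes, so calls were common in this comparison. In bulk RNA, a shift in the share of cells in a phase of the cycle and a change of RNA per cell cannot be told apart. The median absolute log2 fold change was 0.78 over the 9 genes and 0.53 over all genes, and the median signed change was -0.02 and 0.02.

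After EZH2 silencing none of the 9 genes passed the test in limma, with 2 (CCND1 and CDKN1A) at an unadjusted p under 0.05, against 3.83% of all genes called higher and 4.53% called lower. The median absolute log2 fold change was 0.34 over the 9 genes and 0.31 over all genes. After scaling between samples, the control and shEZH2 values did not overlap for 6 of the 9 genes (CCND1, CDK6 and CDKN2A above, CDKN1A, CDKN1B and CDKN2B below), and 65.1% of all tested genes were separated in this way. Both comparisons use the same 2 control samples, so their values are given side by side and were not tested against each other as independent results.

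**Figure D1:**
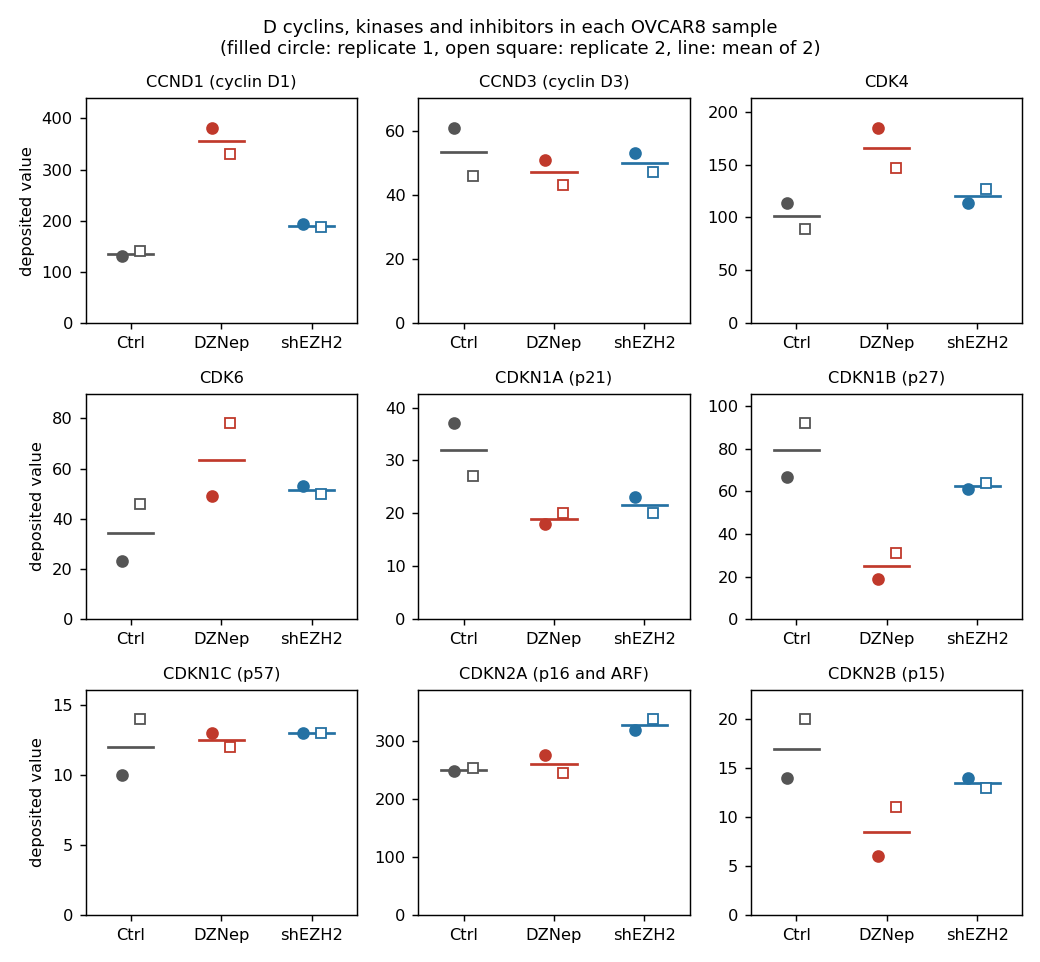
Deposited value (vertical axis from 0, scaled by the authors to a common total per sample) of the 9 listed genes in the control (grey), DZNep (red) and shEZH2 (blue) samples; the filled circle is replicate 1, the open square replicate 2 and the line the mean of 2. CCND1 stands at 330 and 382 after DZNep against 131 and 140 in control, and CDKN1B at 19 and 31 against 67 and 92.

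Among the D cyclins, CCND1, which encodes cyclin D1 (chr11:69641156-69654474 in GRCh38), was 131 and 140 in the control samples, 382 and 330 after DZNep, and 194 and 187 in shEZH2. The 3 groups did not overlap, with DZNep highest and control lowest. The mean was 356 ± 36.8 (SD, n = 2) after DZNep, 191 ± 4.95 in shEZH2 and 136 ± 6.36 in control. On the log2(value + 1) scale CCND1 rose by 1.31 with DZNep (SE 0.19, 95% interval 0.88 to 1.74, adjusted p = 0.00128), which placed it 487th from the top of all tested genes. Under shEZH2 the difference was 0.44 (interval 0.01 to 0.87, adjusted p = 0.173), short of the threshold.

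CCND3, which encodes cyclin D3 (chr6:41934934-42050357), was 61 and 46 in control, 51 and 43 after DZNep and 53 and 47 in shEZH2. All 3 groups overlapped. The log2 difference from control was -0.24 for DZNep (interval -0.81 to 0.32, adjusted p = 0.454) and -0.14 for shEZH2 (interval -0.71 to 0.43, adjusted p = 0.753). As a fold of control, the DZNep interval spans 0.569 to 1.25 and the shEZH2 interval 0.613 to 1.35.

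CDK4 (chr12:57747727-57756013) was 114 and 89 in control, 185 and 147 after DZNep, and 114 and 127 in shEZH2. Both DZNep samples lay above both controls, whereas the shEZH2 samples overlapped the controls. The log2 difference for DZNep was 0.63 (interval 0.06 to 1.21), which missed the threshold with an adjusted p of 0.0736, and for shEZH2 it was 0.20 (interval -0.37 to 0.78, adjusted p = 0.631). CDK4 passed the test without control replicate 1 (0.89, adjusted p = 0.0214), without DZNep replicate 2 (0.93, adjusted p = 0.0199) and without scaling factors between samples (0.71, adjusted p = 0.0265). It also passed with the replicate number as a block (adjusted p = 0.00229 over all samples, 2.01e-07 over the control and DZNep samples), and its replicate 2 lay below replicate 1 by 0.51 on the log2 scale in control and by 0.58 after DZNep. The 3′ end of CDK4 overlaps that of TSPAN31 on the opposite strand, with 1369 exonic bases in common. The library kit was stranded but the use of strand in counting was not given, so reads of the pair may be shared. TSPAN31 fell, from 38 and 36 in control to 25 and 27 after DZNep (log2 fold change -0.56, adjusted p = 0.0373).

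CDK6 (chr7:92604921-92836573) was 23 and 46 in control, 49 and 78 after DZNep, and 53 and 50 in shEZH2. Both treated groups lay above the controls, although control replicate 2 came within a few units of the lowest treated samples. CDK6 rose by 0.83 on the log2 scale with DZNep (SE 0.28, interval 0.19 to 1.48, adjusted p = 0.0433), and the difference under shEZH2 was 0.59 (interval -0.05 to 1.24, adjusted p = 0.207). The DZNep call was lost without control replicate 1 (0.43, adjusted p = 0.177) and without DZNep replicate 2 (0.63, adjusted p = 0.139), and also without scaling factors (adjusted p = 0.1), with median-ratio factors (0.0553), with no filter on low values (0.0549), with only the control and DZNep samples fitted (0.0765) and with the shEZH2 samples averaged (0.062). The control replicates of CDK6 differed by 0.82 on the log2 scale, the widest gap of the 9 genes in that group.

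The promoter of CDK6 is shown because it is the kinase gene that was called. Of its 2 annotated starts the upstream one is given, and the window runs from 250 bases before to 50 bases after the annotated start (RefSeq, GRCh38.p14, chr7:92836524-92836823, minus strand, 5′ to 3′), with matches to the searched motifs in capitals. Its GC content was 78%, against a median of 58.7% over 35116 promoters of the same length. The capitals are 3 matches on either strand to GGGCGG, the GC box bound by SP1, and a match to CACGTG, the E box bound by MYC and USF proteins. GC boxes were in 45% of all promoters and this E box in 7.26%.
CDK6: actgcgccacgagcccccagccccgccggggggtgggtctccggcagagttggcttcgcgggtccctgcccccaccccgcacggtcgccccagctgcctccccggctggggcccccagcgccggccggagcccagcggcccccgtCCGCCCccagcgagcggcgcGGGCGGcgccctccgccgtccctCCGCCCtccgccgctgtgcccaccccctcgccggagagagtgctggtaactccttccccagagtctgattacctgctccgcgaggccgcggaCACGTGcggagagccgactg
The other CDK6 window (chr7:92833910-92834209) held none of the letters searched. The window of CDK4 (chr12:57752261-57752560) held 3 such E boxes and 3 GC boxes. CCND1, CCND2 and CDKN1C had no entry in the promoter table.

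Of the CIP/KIP inhibitors, CDKN1B, which encodes p27 (chr12:12685498-12722369), gave the largest change among the 9 genes. It was 67 and 92 in control, 19 and 31 after DZNep, and 61 and 64 in shEZH2. The DZNep samples were far below the others, and the shEZH2 samples lay just under the lower control sample. The mean was 25 ± 8.49 (SD, n = 2) after DZNep, 62.5 ± 2.12 in shEZH2 and 79.5 ± 17.7 in control. CDKN1B fell by 1.72 on the log2 scale with DZNep (SE 0.21, adjusted p = 0.000675), the 363rd lowest value of all tested genes, and the difference under shEZH2 was -0.38 (interval -0.86 to 0.10, adjusted p = 0.277).

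CDKN1A, which encodes p21 (chr6:36676460-36687337), was 37 and 27 in control, 18 and 20 after DZNep, and 23 and 20 in shEZH2. Every treated sample lay below both controls, and the 2 treated groups touched at 20. CDKN1A fell by 0.78 on the log2 scale with DZNep (SE 0.23, adjusted p = 0.0291), and the difference under shEZH2 was -0.59 (interval -1.13 to -0.05, adjusted p = 0.147). The DZNep call was lost without control replicate 1 (-0.48, adjusted p = 0.13), without DZNep replicate 1 (-0.83, adjusted p = 0.059) and without DZNep replicate 2 (-0.73, adjusted p = 0.0687), and also with only the control and DZNep samples fitted (adjusted p = 0.0693) and with the shEZH2 samples averaged (0.0638).

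CDKN1C, which encodes p57 (chr11:2883213-2885775), was low and even: 10 and 14 in control, 13 and 12 after DZNep, and 13 and 13 in shEZH2. The log2 difference was 0.01 with DZNep (interval -0.49 to 0.50, adjusted p = 0.985) and 0.08 with shEZH2 (interval -0.42 to 0.57, adjusted p = 0.84). At these levels the rounding of the deposited values to whole numbers, up to 0.5 either way, is itself a visible part of each value.

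The INK4 pair lies side by side on chromosome 9, and CDKN2B but not CDKN2A was called with DZNep; the difference between the genes was not tested. CDKN2A (chr9:21967752-21995301), which encodes p16 and, from another first exon, ARF, was 248 and 253 in control, 277 and 245 after DZNep, and 319 and 338 in shEZH2. The DZNep samples straddled the controls and the shEZH2 samples lay above all others. The log2 difference was -0.02 with DZNep (interval -0.44 to 0.41, adjusted p = 0.954) and 0.34 with shEZH2 (interval -0.09 to 0.77, adjusted p = 0.276), so a rise above 1.33-fold with DZNep lies outside the interval. The matrix has 1 row for the gene, and transcripts from its 2 starts cannot be told apart. CDKN2A also shares 593 exonic bases with CDKN2B-AS1 on the opposite strand, which was at most 3 in every sample.

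CDKN2B, which encodes p15 (chr9:22002903-22009305), was 14 and 20 in control, 6 and 11 after DZNep, and 14 and 13 in shEZH2. The DZNep samples lay below all others, and shEZH2 replicate 1 and control replicate 1 shared the value 14. CDKN2B fell by 1.02 on the log2 scale with DZNep (SE 0.24, interval -1.58 to -0.46, adjusted p = 0.0119), and the difference under shEZH2 was -0.34 (interval -0.90 to 0.22, adjusted p = 0.395). Without the scaling factors between samples the DZNep value was -0.95 with an adjusted p of 0.0527.

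The promoters of the 3 inhibitors that fell with DZNep are set together to show what letters they hold (same window and table, 5′ to 3′; capitals mark matches on either strand to the searched motifs).
CDKN1B: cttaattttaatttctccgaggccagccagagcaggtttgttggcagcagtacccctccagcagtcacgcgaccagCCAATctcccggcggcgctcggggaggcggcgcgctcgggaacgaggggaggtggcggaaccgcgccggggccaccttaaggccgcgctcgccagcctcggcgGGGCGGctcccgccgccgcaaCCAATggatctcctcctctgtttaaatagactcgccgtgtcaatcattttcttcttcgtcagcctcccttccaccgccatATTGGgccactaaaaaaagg
CDKN1A: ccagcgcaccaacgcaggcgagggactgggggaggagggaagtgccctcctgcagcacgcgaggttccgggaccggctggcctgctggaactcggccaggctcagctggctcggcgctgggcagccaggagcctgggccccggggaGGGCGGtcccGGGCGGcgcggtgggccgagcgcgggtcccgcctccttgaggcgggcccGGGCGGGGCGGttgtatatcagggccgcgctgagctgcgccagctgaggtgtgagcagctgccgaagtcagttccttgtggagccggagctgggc
CDKN2B: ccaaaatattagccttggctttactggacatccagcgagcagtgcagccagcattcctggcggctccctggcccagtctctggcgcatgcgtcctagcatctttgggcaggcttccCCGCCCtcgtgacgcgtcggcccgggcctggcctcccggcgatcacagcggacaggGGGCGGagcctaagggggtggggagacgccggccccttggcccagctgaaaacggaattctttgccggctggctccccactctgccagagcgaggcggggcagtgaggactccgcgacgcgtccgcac
The CDKN1B window (chr12:12717118-12717417, plus strand) held 3 matches to CCAAT, the box bound by NF-Y, and 1 GC box. CCAAT occurred in 34.6% of all promoters. The CDKN1A window (chr6:36678464-36678763, plus strand) held 4 GC boxes, of which the last pair overlap, and no CCAAT. The CDKN2B window (chr9:22009256-22009555, minus strand) held 2 GC boxes, 1 on each strand. Across the 11 windows of the 7 genes with an entry, 8 held a GC box, 3 a CCAAT box, 2 the E box and 1 (of CCND3) the forkhead letters GTAAACA, which 3.42% of all promoters held. None held the E2F letters TTTCGCGC (0.515% of all promoters) or TTTGGCGC (0.652%), the AP-1 letters TGACTCA (4.95%), the cyclic AMP element TGACGTCA (1.85%) or the box TATAAA (11.5%). No motif other than the GC box was common to the 3 windows shown, and matches are a description of the letters only.

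**Figure D2:**
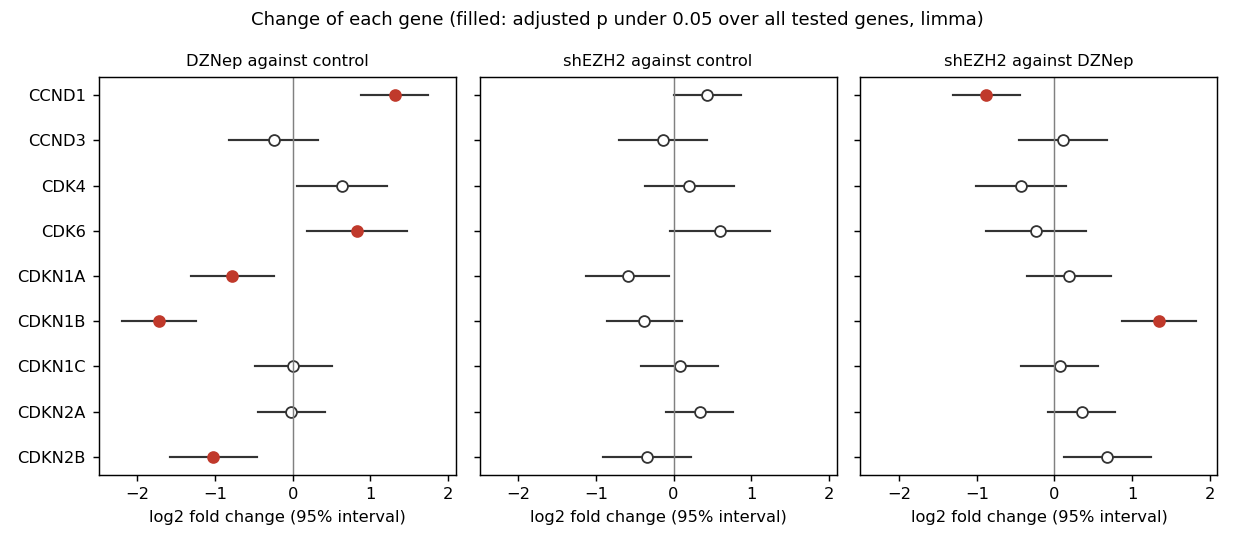
Log2 fold change (horizontal axis) with its 95% interval for each gene in the 3 comparisons; filled red points passed an adjusted p of 0.05 over all 9671 genes. With DZNep 5 genes are filled, with shEZH2 none, and between the treatments CCND1 (-0.88) and CDKN1B (1.35).

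The 3 other genes of these inhibitor families or of their name, listed beside the 9, all fell with DZNep. CDKN2C, which encodes the INK4 protein p18, was 37 and 37 in control, 24 and 25 after DZNep and 32 and 36 in shEZH2 (DZNep log2 fold change -0.65, adjusted p = 0.0254). CDKN2D, which encodes the INK4 protein p19, was 28 and 27, 18 and 19, and 33 and 31 in the same order (-0.62, adjusted p = 0.0288). CDKN3, a phosphatase that acts on CDK2 and whose transcript rises in dividing cells, was 50 and 85, 19 and 29, and 41 and 40 (-1.51, adjusted p = 0.00199). For each of the 3, the DZNep samples lay below all others. None passed the test under shEZH2 in limma (-0.17, 0.16 and -0.73), with 1 of the 3 at an unadjusted p under 0.05. The calls for CDKN2C and CDKN2D were lost without control replicate 1 (adjusted p = 0.0808 and 0.103) or DZNep replicate 2 (0.071 and 0.0767). Of the 7 CIP/KIP and INK4 genes measured, 5 were called lower with DZNep and 0 higher, beside 20.4% and 22.3% of all genes; the calls of CDKN1A, CDKN2C and CDKN2D among these depend on single samples as given above, and the families were not tested as sets.

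Compared directly, shEZH2 left CDKN1B higher than DZNep did and CCND1 lower. CDKN1B was higher in shEZH2 by 1.35 on the log2 scale (interval 0.87 to 1.83, adjusted p = 0.0114), the 109th highest value of all genes in this comparison, and CCND1 was lower by 0.88 (interval -1.31 to -0.44, adjusted p = 0.0295). In this comparison 4.87% of all genes were called higher and 4.56% lower. CDKN2B (0.68, interval 0.12 to 1.24, adjusted p = 0.117) was at an unadjusted p under 0.05 alone, and CDKN1A (0.19, interval -0.35 to 0.72) and CDK6 (-0.24, interval -0.89 to 0.40) were not called. Among the other inhibitors, CDKN2D was higher in shEZH2 (0.78, adjusted p = 0.0406), a call lost when any 1 DZNep or shEZH2 sample was left out (adjusted p = 0.0554 to 0.359). The calls for CDKN1B and CCND1 were lost with the shEZH2 samples averaged (adjusted p = 0.105 and 0.262) and when either shEZH2 sample was left out: CDKN1B had 1.44 (adjusted p = 0.0704) and 1.29 (adjusted p = 0.116) without replicates 1 and 2, CCND1 had -0.84 (adjusted p = 0.284) and -0.87 (adjusted p = 0.246), and CCND1 also without DZNep replicate 1 (-0.64, adjusted p = 0.0722).

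**Figure D3:**
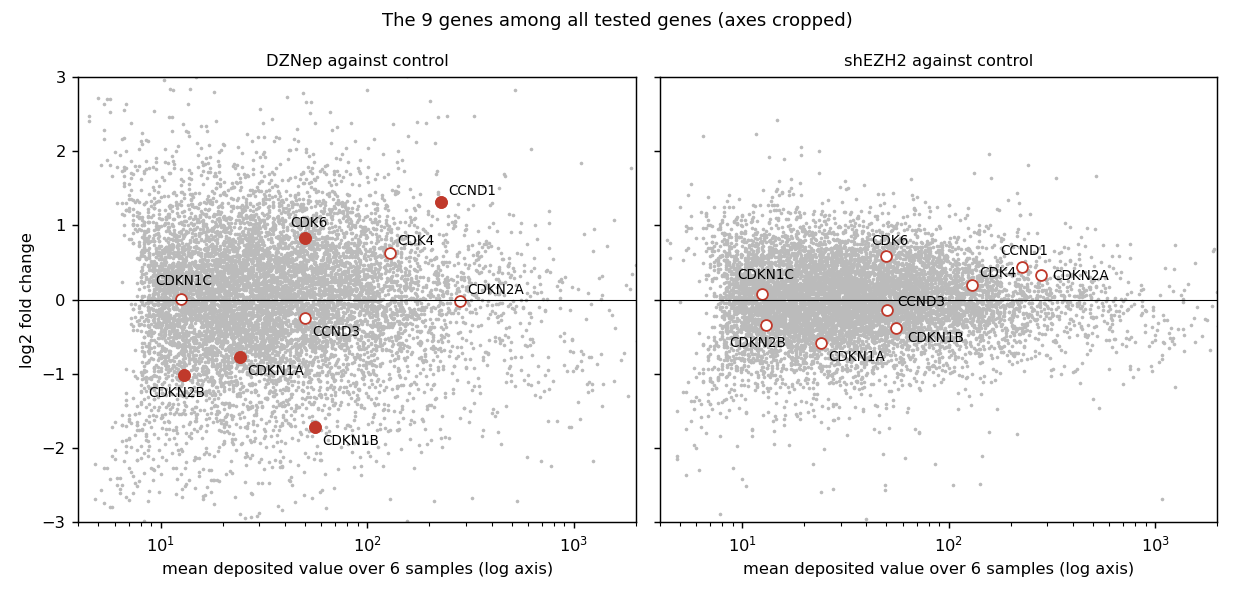
Log2 fold change (vertical axis) against the mean deposited value over 6 samples (horizontal log axis) for all tested genes (grey) and the 9 genes (red; filled where adjusted p was under 0.05), with DZNep on the left and shEZH2 on the right; both axes are cropped. CCND1 (1.31) and CDKN1B (-1.72) stand towards the edges of the DZNep cloud, while with shEZH2 all 9 points lie between -0.59 and 0.59.

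The remainder of the G1/S machinery was called in both directions with DZNep, below the rate of all genes for higher calls and slightly above it for lower calls. Of 25 genes listed (other cyclins and CDKs, the RB and E2F families, CDC25A), 22 were tested and 3 were higher and 5 lower. These are 13.6% and 22.7%, beside 22.3% and 20.4% of all tested genes, so the counts are no result about the list. The median log2 fold change was -0.16. RB1, E2F2 and E2F8 were too low to test. RB1, the substrate of the cyclin D kinases, was 5 and 7 in control, 2 and 2 after DZNep, and 4 and 3 in shEZH2. CDC25A, the phosphatase that activates CDK2, rose from 25 and 26 in control to 51 and 69 after DZNep (1.12, adjusted p = 0.00181) and to 46 and 48 in shEZH2 (0.81, adjusted p = 0.0308). CCNE1, which encodes the G1/S cyclin E1, rose with DZNep from 32 and 35 to 55 and 54 (0.62, adjusted p = 0.0262), and was 37 and 33 in shEZH2. CCNA2, the S and G2 cyclin A2, fell with DZNep (-0.92, adjusted p = 0.00783), as did RBL2, the RB relative p130 (-0.87, adjusted p = 0.0178). The others called with DZNep, named after their values were seen, were LIN52 (higher) and E2F5, CCNE2 and CDK7 (lower). With shEZH2 CDC25A was higher and CCNE2, the second cyclin E gene, lower (-1.16, adjusted p = 0.0441, at 12 and 19 in control and 7 and 6 in shEZH2). CCNE2 was 5 and 10 after DZNep and would not have passed the filter on low values without its control samples. Its calls are given as a description only.

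Transcripts of E2F targets and division genes, which lie downstream of the cyclin D kinases, were called in both directions with DZNep. Of 30 genes, all tested, 10 were higher and 6 lower (33.3% and 20%, beside 22.3% and 20.4% of all genes), with a median of 0.25. Those called higher were MCM2, MCM3, MCM5, CDC6, CDT1 and GINS2 of the replication origin machinery, FEN1, CHAF1A and UHRF1 of DNA and chromatin replication, and the transcription factor MYBL2. Those called lower were the ribonucleotide reductase subunits RRM1 and RRM2 and the mitotic genes CDK1, CCNB1, CCNB2 and BUB1. MCM2 rose from 269 and 216 in control to 668 and 592 (1.31, adjusted p = 0.00245) and FEN1, the flap endonuclease, from 111 and 111 to 269 and 298 (1.27, adjusted p = 0.000711). RRM1 fell from 143 and 198 to 41 and 75 (-1.65, adjusted p = 0.00124) and BUB1, a spindle checkpoint kinase, from 255 and 380 to 97 and 148 (-1.44, adjusted p = 0.00117). With shEZH2 1 gene was higher, the replication licensing factor CDT1 (33 and 28 in control, 62 and 60; 0.93, adjusted p = 0.0455), and 2 were lower, RRM2 (-0.83, adjusted p = 0.0235) and RRM1 (-0.97, adjusted p = 0.0454).

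Genes for the turnover of cyclin D and of the inhibitors, mostly ubiquitin ligase subunits, were called at about the background rate: 4 of 18 tested genes were higher and 4 lower with DZNep (22.2% each), with a median of -0.00. CUL4A, a cullin scaffold, fell (-0.67, adjusted p = 0.0113), as did RNF123 (-0.63, adjusted p = 0.0318), while its partner UBAC1 rose (0.78, adjusted p = 0.0113); RNF123 and UBAC1 form the KPC ligase that acts on p27 in G1. CDC37, a co-chaperone that loads CDK4 and CDK6 onto HSP90, rose from 362 and 347 to 563 and 588 (0.63, adjusted p = 0.0167). The others called with DZNep were FBXL12 and DTL (higher) and RBX1 and FBXO4 (lower), and with shEZH2 only FBXO4 was called (lower). These are low genes or lay between the extremes and were named after their values were seen. FBXO4 passed the filter on low values only through its control samples (11 and 13), so its calls are given as a description only.

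CDKN1A is itself a p53 target. Of 19 others tested, 7 were higher and 2 lower with DZNep (36.8% and 10.5%, beside 22.3% and 20.4% of all genes), and the median was 0.03. The list includes ZMAT3, which was 5 and 9 in control and 13 and 20 after DZNep. It passed the filter on low values only through treated samples, so the share called higher is given as a description only. AEN, a nuclease gene induced by p53, rose from 32 and 29 to 109 and 106 (1.72, adjusted p = 0.000472), GADD45A, a stress gene, from 95 and 118 to 245 and 293 (1.26, adjusted p = 0.000774), and the death receptor gene TNFRSF10B by 0.65 (adjusted p = 0.0137). CCNG1, which encodes cyclin G1, fell from 232 and 362 to 82 and 156 (-1.42, adjusted p = 0.00345). DDB2 was the other gene called lower. With shEZH2 none of the 19 passed the test in limma, with 5 at an unadjusted p under 0.05.

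Of 18 tested transcription factors known to act on these genes, 8 were higher and 1 lower with DZNep, with a median of 0.32. These are 44.4% and 5.56%, beside 22.3% and 20.4% of all tested genes. The list includes KLF4, which was 5 and 6 in control and 15 and 17 after DZNep. It passed the filter on low values only through the DZNep samples, so the share called higher is given as a description only. With shEZH2 2 were higher (11.1%, beside 3.83% of all genes) and none lower. MYC, which represses CDKN1A and CDKN2B and activates D cyclin and CDK4 transcription, was 73 and 69 in control, 201 and 207 after DZNep, and 136 and 139 in shEZH2. The 3 groups were well apart, and MYC rose with both treatments (1.44, adjusted p = 0.0006, and 0.89, adjusted p = 0.0227). ETS1 rose with DZNep (1.21, adjusted p = 0.00083). SMAD3, a mediator of TGF-beta signals to CDKN2B, rose with both (0.83, adjusted p = 0.0113, and 0.88, adjusted p = 0.0355), while its partner SMAD4 fell with DZNep (-0.63, adjusted p = 0.0344).

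Of 21 genes of RAS, PI3K and mTOR signalling, which feed into cyclin D1, 3 were higher and 1 lower with DZNep, with a median of -0.26. These are 14.3% and 4.76%, below the 22.3% and 20.4% of all tested genes. With shEZH2 2 were higher (9.52%, beside 3.83% of all genes). Both passed the filter on low values only through treated samples, so this share is no result about the list. MAP2K2, which encodes the kinase MEK2, fell with DZNep from 312 and 250 to 116 and 101 (-1.43, adjusted p = 0.0018). DUSP6 and SPRY4, feedback inhibitors of this pathway named after their values were seen, were called higher with DZNep. They were the 2 called higher with shEZH2 (1.04, adjusted p = 0.0289, and 1.03, adjusted p = 0.0214). DUSP6 was 3 and 4 in control, 12 and 19 after DZNep, and 9 and 8 in shEZH2. SPRY4 was 4 and 4, 11 and 13, and 10 and 9 in the same order. Both passed the filter on low values only through treated samples, so their calls are given as a description only.

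Between the treatments, the E2F targets and division genes had 1 gene higher and 6 lower in shEZH2 than after DZNep (CCNB2 higher; MCM2, MCM3, MCM4, GINS2, FEN1 and UHRF1 lower). The p53 targets had 4 lower (GADD45A, PMAIP1, PLK2 and AEN) and the transcription factors 2 lower (KLF4 and ETS1). The turnover genes had FBXO4 higher and DTL lower, and the G1/S machinery E2F5 higher. KLF4 was 5 and 6 in control, 15 and 17 after DZNep, and 8 and 7 in shEZH2. FBXO4 was 11 and 13, 2 and 3, and 6 and 6 in the same order. KLF4 passed the filter on low values only through the DZNep samples and FBXO4 only through the control samples. Their calls are given as a description only. Of the 21 RAS, PI3K and mTOR genes none passed in limma, with 3 at an unadjusted p under 0.05. With either shEZH2 sample left out, 0 genes of the 7 lists were called between the treatments.

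With 1 sample left out, the number of genes called higher with DZNep ran from 6 to 11 for the E2F targets and division genes, 6 to 8 for the transcription factors, 5 to 7 for the p53 targets, 2 to 6 for the turnover genes, 2 to 5 for the RAS, PI3K and mTOR genes and 1 to 4 for the G1/S machinery. The number lower ran from 1 to 3 for the turnover genes (lowest without control replicate 1), 1 to 4 for the RAS, PI3K and mTOR genes (highest without control replicate 1) and 2 to 5 for the G1/S machinery. The DZNep calls of CCNE1, RBL2, UBAC1, CDC37, RNF123, CUL4A, TNFRSF10B and SMAD4 were each lost without at least 1 sample (adjusted p = 0.0501 to 0.166), and those of CDC25A, CCNA2, MCM2, FEN1, RRM1, RRM2, BUB1, AEN, GADD45A, CCNG1, MYC, ETS1, SMAD3 and MAP2K2 in no such fit. The shEZH2 calls of CDC25A, CDT1, RRM1, RRM2, MYC and SMAD3 were all lost without control replicate 2 and without either shEZH2 sample (adjusted p = 0.0779 to 0.349), with log2 fold changes of unchanged sign. Those of CCNE2 and SPRY4 were lost in the same 3 fits, that of DUSP6 without either shEZH2 sample, and that of FBXO4 whenever a control or shEZH2 sample was left out.

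**Figure D4:**
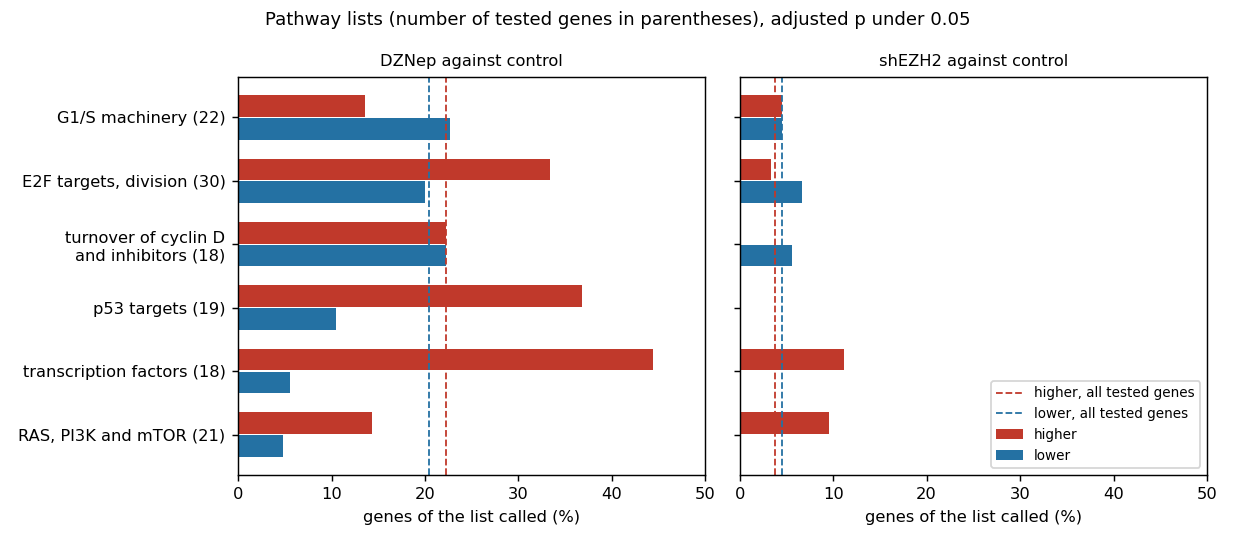
Percent of each list's tested genes (number in parentheses) called higher (red) and lower (blue) with DZNep (left) and shEZH2 (right); dashed lines are the shares over all tested genes, 22.3% and 20.4% with DZNep and 3.83% and 4.53% with shEZH2. With DZNep the transcription factors (44.4% higher) and p53 targets (36.8%) extend furthest past the red line. Each of these lists includes a gene (KLF4 and ZMAT3) that passed the filter on low values only through treated samples.

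For each of the 3 genes with a log2 change above 1 in size, the genes with the most similar course over the 6 samples were found by the Euclidean distance between centred log2 values. For CCND1 these were TUFT1 (distance 0.185; 46 and 43 in control, 120 and 115 after DZNep, 67 and 64 in shEZH2), TUSC1 (0.211) and CCDC86 (0.213), against a median distance of 1.44 over 6646 candidates. For CDKN1B they were ADGRG6 (0.33; 85 and 140, 24 and 48, 91 and 80), ATL3 (0.348) and NRD1 (0.403), with a median of 1.94. For CDKN2B they were MAP1B (0.178; 157 and 218, 67 and 110, 153 and 133), KIF23 (0.179) and ERLIN2 (0.188), with a median of 1.30 over 6647 candidates. In the CDKN1B and CDKN2B sets replicate 2 lay above replicate 1 in both the control and the DZNep group, a feature of the replicates that these genes share. The distances describe 6 samples of 3 groups.

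**Figure D5:**
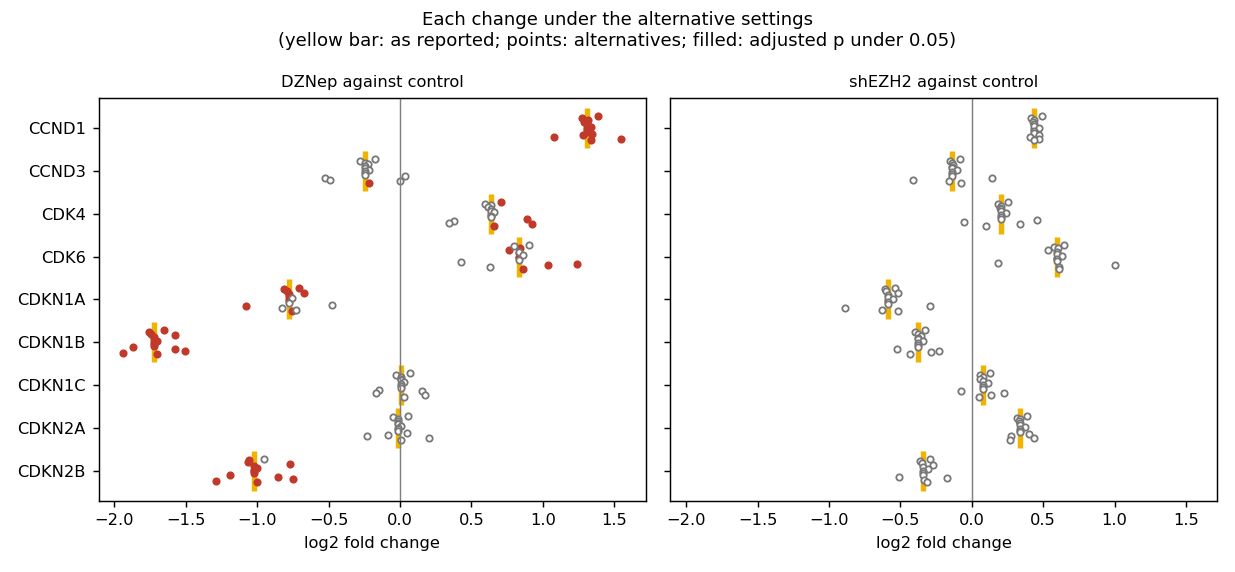
Log2 fold change (horizontal axis) of each gene as reported (yellow bar) and under each alternative setting (points; filled where adjusted p was under 0.05), for DZNep (left) and shEZH2 (right). CCND1 and CDKN1B keep filled points in all 15 alternatives with DZNep, whereas CDK4, CDK6 and CDKN1A have both kinds.

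CCND1 and CDKN1B passed the test with DZNep under all 15 alternative settings of the fit, with log2 fold changes from 1.08 to 1.55 and from -1.94 to -1.51. CDKN2B passed in 13 of the 14 that could test it, CDKN1A in 10 of 15, CDK6 in 8 and CDK4 in 5, while CDKN1C and CDKN2A passed in none.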

How the data were processed

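RNA was extracted with TRIzol, depleted of ribosomal RNA, made into stranded libraries and sequenced on a NovaSeq. According to the study's methods and the labels, reads were trimmed with fastp, aligned with STAR to GRCh38 and quantified with RSEM on GENCODE 37. The values deposited by the authors are treated as a score: whole numbers that the authors had scaled to a common total (999956 to 1000068 per sample) and rounded. They are not read counts, the scaling step was not given in the sources used here, sequencing depth is unknown, and levels were not compared between genes. Of 14930 genes, 9671 reached 10 in 2 or more samples and were tested.

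TMM factors (trim 30% and 5%; 0.919 to 1.12) were computed from the deposited scores, and log2(value/factor + 1) was fitted for all 6 samples with limma 3.58.1 (R 4.3.3; eBayes with trend, two-sided, Benjamini-Hochberg over 9671 genes, called at an adjusted p under 0.05). A log2 fold change on this scale understates changes of low genes. The replicates were 2 per group. The script was tested on simulated data.

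The genes and the 7 gene lists were chosen with earlier results of these data known. From each list the text names, per comparison with control, the called genes (mean of 20 or more) that had the 2 largest and 2 smallest changes, and gives other called genes by name only; CDKN2C, CDKN2D, CDKN3, the 3 nearest genes of each gene that changed by over 1 on the log2 scale, and overlapping or neighbouring genes were also named; a gene that the rule names is not reported here. Promoters came from RefSeq (GRCh38.p14; 250 bases before to 50 after the start; 7 of 10 genes matched by symbol, 11 windows), and gene positions from GENCODE 44. Alternatives covered scaling, filter, pseudocount (0.5 and 5), variance prior, call rule, samples in the fit, a replicate block, averaging of the shEZH2 samples and leaving out each sample.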

Additional observations from a re-analysis of the deposited data

How the results depend on the processing

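Same-numbered control and DZNep replicates deviated together (correlation 0.79 across genes), while those of shEZH2 followed neither group (-0.02 with control, -0.04 with DZNep). The labels do not say what a number marks, so the replicate block was an alternative only. With it DZNep against control gave 3 of the 9 genes higher, CDK4 added (0.63, adjusted p = 0.00229). Calls over all genes rose as well, to 2734 higher and 2699 lower, against 2160 and 1969 without the block. With the replicate block, shEZH2 against control gave 2 genes higher (CCND1, adjusted p = 0.0476, and CDK6, 0.0164) and 1 lower (CDKN1A, 0.0257) of the 9, shEZH2 against DZNep gave 2 higher (CDKN2B added, 0.0177), and all genes called were 1391 and 1384, and 1348 and 1243. With the block in the control and DZNep samples alone, an alternative chosen after seeing the data, 3650 genes were higher and 3312 lower, and of the 9 genes 3 were higher, CDK4 included (0.66, adjusted p = 2.01e-07), and 4 lower, CCND3 included (-0.22, adjusted p = 0.0463). DZNep gave 1 gene of the 9 higher in place of 2 with median-ratio factors, without a filter, with only the groups compared, with the study's fold rule and with the shEZH2 samples averaged. Over all genes the higher calls were then 2041, 2729, 1617, 1017 and 1533 in that order, against 2160 as reported. The fold rule gave 1017 and 1144 genes in all for DZNep, 215 higher for shEZH2 and 204 lower between the treatments, where 0 of the 9 were then lower. Averaging left 10 and 29 genes for shEZH2, 34 and 39 between the treatments, and 0 of the 9 in either direction there. Without scaling factors 812 genes were higher in shEZH2 than in control and 674 lower than after DZNep; with only the groups compared, 748 were higher and 682 lower than in control, and 720 lower than after DZNep. Leaving out 1 sample gave 1381 to 2282 and 1408 to 2158 genes for DZNep, 8 to 685 and 27 to 475 for shEZH2, and 40 to 505 and 39 to 288 between the treatments; of the 9, 2 were higher each time and 2 to 3 lower with DZNep, none with shEZH2, and 0 to 2 higher and 0 to 1 lower between the treatments. With 1 sample left out, the 2 genes called higher with DZNep were not the same each time. They were CCND1 and CDK4 without control replicate 1 or DZNep replicate 2, and CCND1 and CDK6 in the other fits. The log2 fold change then ran from 0.43 to 1.24 for CDK6 and from 0.34 to 0.93 for CDK4. The cause of these dependences on the processing was not tested.

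Where a group was left with 1 sample, that sample was assumed to vary like the other groups. Only differences that were not called changed sign. With DZNep these were CDKN1C (-0.028 with median-ratio factors; -0.17 to 0.18 without 1 sample), CDKN2A (0.056 as deposited, 0.010 with only the groups compared, and 0.010 with the block as well; -0.23 to 0.20) and CCND3 (-0.52 to 0.034). With shEZH2 they were CCND3 (-0.41 to 0.14), CDK4 (-0.054 to 0.46), CDKN1C (-0.074 to 0.23), CCNE1 (-0.0091 with median-ratio factors; -0.012 to 0.066) and CCNA2 (-0.35 to 0.024). Between the treatments they were CCND3 (-0.10 to 0.35), CDKN1C (-0.068 to 0.24), CDT1 (-0.33 to 0.14) and SMAD3 (-0.13 to 0.26).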

Other observations

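Other genes at these loci gave values that the gene-by-gene account leaves out. Within 20 kb of the 10 genes the matrix listed 15 others, of which 10 were tested; 4 were higher and 1 lower with DZNep (5 of 10, beside 42.7% of all genes called), none passed with shEZH2 in limma (2 at an unadjusted p under 0.05), and 1 was lower in shEZH2 than after DZNep. At the CCND3 locus, where the cyclin gene itself was not called, both flanking genes on the opposite strand rose with DZNep. BYSL, a ribosome biogenesis factor, went from 34 and 26 to 86 and 75 (1.33, adjusted p = 0.00339), and TAF8, a subunit of the general transcription factor TFIID, from 18 and 18 to 37 and 42 (1.02, adjusted p = 0.00383). TAF8 was also lower in shEZH2 than after DZNep (-0.77, adjusted p = 0.0434). Near CDK4, METTL1, the tRNA m7G methyltransferase, rose from 15 and 12 to 35 and 27 (1.07, adjusted p = 0.0136), and OS9, a lectin of endoplasmic reticulum quality control, from 82 and 81 to 135 and 120 (0.57, adjusted p = 0.0421). CDKN2B-AS1, the antisense RNA across CDKN2B, was 3 and 3 in control, 1 and 1 after DZNep, and 2 and 2 in shEZH2, too low to test. TIGAR, next to CCND2, was 9 and 11, 11 and 18, and 11 and 11, and was not called.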
